A study of Homo sapiens with 5 samples.

Results

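KGN cells, an established line, were grown from a human ovarian tumour of granulosa cells. Polyadenylated RNA of KGN cells given follicle-stimulating hormone (FSH) was compared with that of the control. A gene was compared when its larger value in the 2 libraries reached 100 scaled counts, which kept 12471 of 35453 gene names. A scaled count is the estimated read count of a gene, summed over its transcripts and divided by a size factor of its library. The rule did not use the difference between the libraries.

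After 72 h of culture all cells were moved to charcoal-stripped DMEM/F12 medium with 100 nmol/L androstenedione, the substrate from which aromatase makes oestrone, and were treated there for 24 h. FSH was given at 100 ng/mL. The control is titled as untreated, while the protocol has ethanol added to it. Forskolin (FSK, a direct activator of adenylate cyclase), SC79 at 4 µg/mL (an activator of the kinase AKT) and the phorbol ester PMA (which switches on protein kinase C) were the other treatments, labelled 10 mmol/L FSK and 0.1 mmol/L PMA; for both the protocol writes another unit. Each treatment has 1 library, made from a pool of 270 ng of RNA, to which each of 3 cultures grown in separate weeks gave 90 ng. There is thus no replicate error, and no difference below has a replicate check or a p-value. The intervals given are 95% conditional binomial (Clopper-Pearson) intervals of a ratio, which cover counting error only.

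FSH is the pituitary hormone that drives granulosa cells of the growing follicle to divide, to make oestradiol and to prepare for luteinising hormone. Its receptor, FSHR, couples through a stimulatory G protein to adenylate cyclase. The cyclic AMP made there activates protein kinase A, which phosphorylates the factor CREB, while phosphodiesterases break cyclic AMP down again. Aromatase (CYP19A1), which converts androgens to oestrogens, and STAR, which moves cholesterol into mitochondria for steroid synthesis, are well-known products of this pathway.

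Library totals, as rounded estimated counts, were 58811603 for control, 53493911 for FSH and no less than 50218703 for the others. Mitochondrially encoded transcripts held 1.25% to 1.43% of the counts and retained-intron transcripts 2.65% to 2.81%. The granulosa markers were present in part. FOXL2, a transcription factor that maintains granulosa identity, had 9964 scaled counts without and 9124 with FSH, and GATA4, another gonadal factor, had 10074 and 9999. NR5A1, the steroidogenic factor, had 5069 and 4850. The FSH receptor itself was low, with 92.6 scaled counts in control, 111 with FSH, 132 with FSK, 73.0 with SC79 and 36.6 with PMA. The interval of the FSH to control ratio of FSHR, 0.905 to 1.58, includes 1. WT1, a transcription factor of the gonads, was near 0 in both libraries (0.917 and 0). LHCGR, the luteinising hormone receptor, had 3.74 and 6.49 scaled counts.

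Most genes were close to control. Of the 12471 genes, 11683 (93.7%) lay within 1.2-fold, and the log2 ratio of FSH to control had a 1st percentile of -0.39, a median of -0.01 and a 99th percentile of 0.50. The spread narrowed with abundance. Genes with 100 to 300 scaled counts ran from -0.71 to 1.12 between these percentiles, and genes above 3000 from -0.25 to 0.24. By the 2-fold rule 38 genes (0.305%) were higher and 13 (0.104%) lower with FSH. By 1.5-fold 91 genes (0.73%) were higher and 37 (0.297%) lower. The authors' normalized signal multiplies counts by 1.02 for control and 0.998 for FSH, which leaves the difference between the library totals in. With these constants in place of TMM factors the median of all genes was -0.16. The splits were then 29 higher and 19 lower by 2-fold, and 60 and 107 by 1.5-fold. The counting interval left out a ratio of 1 for 4186 genes (33.6%). It does not cover the spread between cultures, which is not known. The genes nearest the limit of 100 scaled counts were NPIPB2 at 100.3, just inside, and PLEKHG1 at 99.99, just outside.

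**Figure D1:**
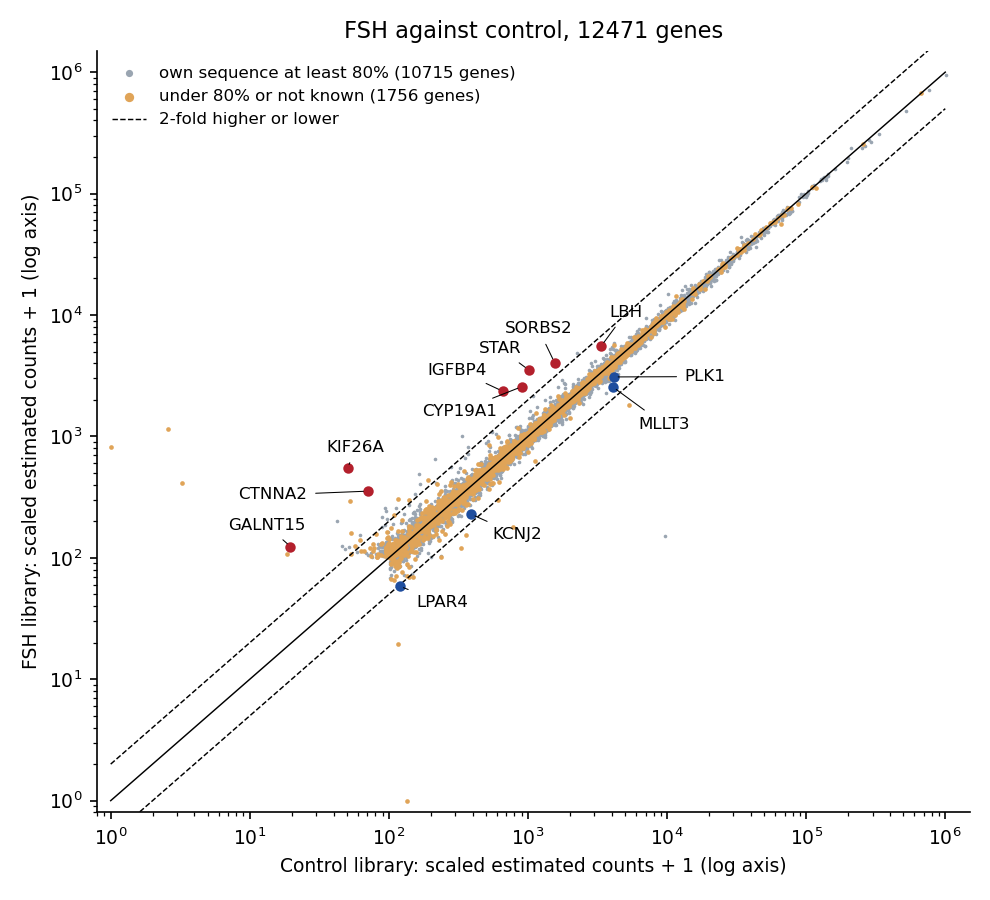
Scaled estimated counts plus 1 of 12471 genes in the control library (x axis) and the FSH library (y axis), both on log axes, with 1 point per gene. Orange points are genes with under 80% own sequence or with none known; the named red points (FSH higher) and blue points (FSH lower) are genes described in the text, and most other points lie between the dashed 2-fold lines.

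Part of the larger ratios belonged to genes whose reads cannot be placed with certainty. For each gene the share of its 31-base words found under no other deposited gene name was counted, with transcript sequences of GENCODE release 29. Genes with at least 80% are called genes with own sequence. Of the 13 genes at least 2-fold lower, 6 were pseudogenes and 3 had own sequence; of the 38 higher, 6 were pseudogenes and 25 had own sequence. Among the 10715 genes with own sequence, the 2-fold rule found 25 (0.233%) higher and 3 (0.028%) lower, and 63 (0.588%) and 16 (0.149%) passed 1.5-fold. The genes named below as the 15 highest and 10 lowest are from this set, leaving out genes whose name is only a clone name. That left out AL356432.3, an unprocessed pseudogene with 80.1% own sequence, just inside the limit, which had the lowest ratio of the set by far (9621 scaled counts in control and 151 with FSH, log2 -5.99).

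The cyclic AMP response element, the DNA letters that CREB binds, is TGACGTCA, and its half-site is TGACG. Both were searched on both strands, the half-site also as CGTCA, from 250 bases before to 50 bases after the RefSeq start of each gene (build GRCh38.p14). The whole element contains the half-site and counts for both. A promoter was matched by symbol for 9631 of the 12471 genes, of which 321 (3.33%) held the whole element and 3339 (34.7%) a half-site. Of the 25 genes with own sequence at least 2-fold higher, 18 had a promoter, of which 1 (5.56%) held the whole element and 5 (27.8%) a half-site. The 5 stretches are printed because they show where the letters stand in genes that were high with FSH, with the matches in capitals and each stretch on the plus strand and upstream of its gene in GENCODE release 29.
PDE7B, chr6:135851521-135851578: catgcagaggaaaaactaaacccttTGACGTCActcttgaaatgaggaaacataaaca
NR4A3, chr9:99821751-99821854: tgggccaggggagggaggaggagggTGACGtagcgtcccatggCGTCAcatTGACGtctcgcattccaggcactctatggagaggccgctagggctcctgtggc
GALNT15, chr3:16174559-16174613: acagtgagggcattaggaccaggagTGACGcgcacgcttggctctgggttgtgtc
VWA5B2, chr3:184229337-184229391: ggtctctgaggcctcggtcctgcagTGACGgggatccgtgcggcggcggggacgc
ESYT3, chr3:138434429-138434483: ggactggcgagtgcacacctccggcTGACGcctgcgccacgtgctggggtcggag
In PDE7B, which breaks down cyclic AMP, the element begins 155 bases before the start. NR4A3, a nuclear receptor of the early hormone response, holds 3 half-sites in the stretch shown, which begin 109, 91 and 83 bases before the start. The searched promoters of IGFBP4, CYP19A1, KIF26A, CTNNA2, GAS1, PI16, SORBS2 and PDE4B hold neither set of letters before the start. Only a single start per symbol was searched, so any other starts of these genes were not covered. At 1.5-fold the half-site stood in 17 of 44 promoters of higher genes (38.6%) and in 2 of 12 of lower genes (16.7%). These are counts of letters, and binding was not measured.

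The highest ratio belonged to KIF26A (ENSG00000066735, chr14:104138723-104180894, GRCh38), a kinesin-family protein that has lost motor activity. It had 49.5 scaled counts in control, 545 with FSH, 3275 with FSK, 50.8 with SC79 and 39.5 with PMA. The FSH library thus stood between FSK and the 3 others, which were close together. The FSH to control ratio was 11.0 (interval 8.31 to 14.8), and on the TPM scale, a level per transcript length, KIF26A went from 0.333 to 3.73. Both transcripts that carry its counts were higher, ENST00000315264.7 by a log2 ratio of 3.21 and ENST00000423312.6 by 3.95.

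GALNT15 (ENSG00000131386, chr3:16174649-16231992) is a polypeptide GalNAc transferase, an enzyme that starts mucin-type O-glycans. It had 18.6 scaled counts in control, 123 with FSH, 1374 with FSK, 31.3 with SC79 and 87.8 with PMA. Its ratio was 6.61, with a wide interval of 4.15 to 11.3. CTNNA2 (chr2:79185231-80648861), an alpha catenin best known from neurons, had 69.4 and 353 scaled counts and a ratio of 5.09 (3.95 to 6.59). One transcript, ENST00000496558.5, carried this difference with 26.4 and 285 scaled counts, 38.1% of the gene in control and 80.6% with FSH. VWA5B2 (chr3:184230429-184242329) had 41.3 and 201, a ratio of 4.86 (3.50 to 6.88). These 4 genes were all low in control.

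Other genes among the 15 highest have roles outside steroid synthesis. SORBS2 (chr4:185585444-185956652), an adaptor of the actin cytoskeleton, was the most abundant of the 15 with FSH. It had 1552 scaled counts in control, 4057 with FSH, 9727 with FSK, 1461 with SC79 and 2010 with PMA, a ratio of 2.62 (2.47 to 2.77). GAS1 (chr9:86944363-86947189), a membrane protein of Hedgehog reception found in growth-arrested cells, had 335, 1007, 3396, 358 and 347 in that order, a ratio of 3.01 (2.67 to 3.40). For both genes the control, SC79 and PMA libraries were the 3 lowest.

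PI16, a peptidase inhibitor, had 163 and 487 scaled counts in control and FSH, a ratio of 2.98 (2.51 to 3.56). CARNS1, the carnosine synthase, had 214 and 648, a ratio of 3.03 (2.61 to 3.54). Its transcript ENST00000445895.2 had 0 in control and 176 with FSH, while ENST00000307823.7 had 124 and 283, so more than 1 transcript was higher. CHGB, the granule protein chromogranin B, had 92.6 in control, 255 with FSH, 685 with FSK, 76.2 with SC79 and 960 with PMA. The PMA library was the highest for CHGB. ACKR3, a scavenger receptor for the chemokine CXCL12, had 44.9 and 125 (ratio 2.78, 1.98 to 3.95), and GAS7 had 93.7 and 244 (2.60, 2.06 to 3.31).

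**Figure D2:**
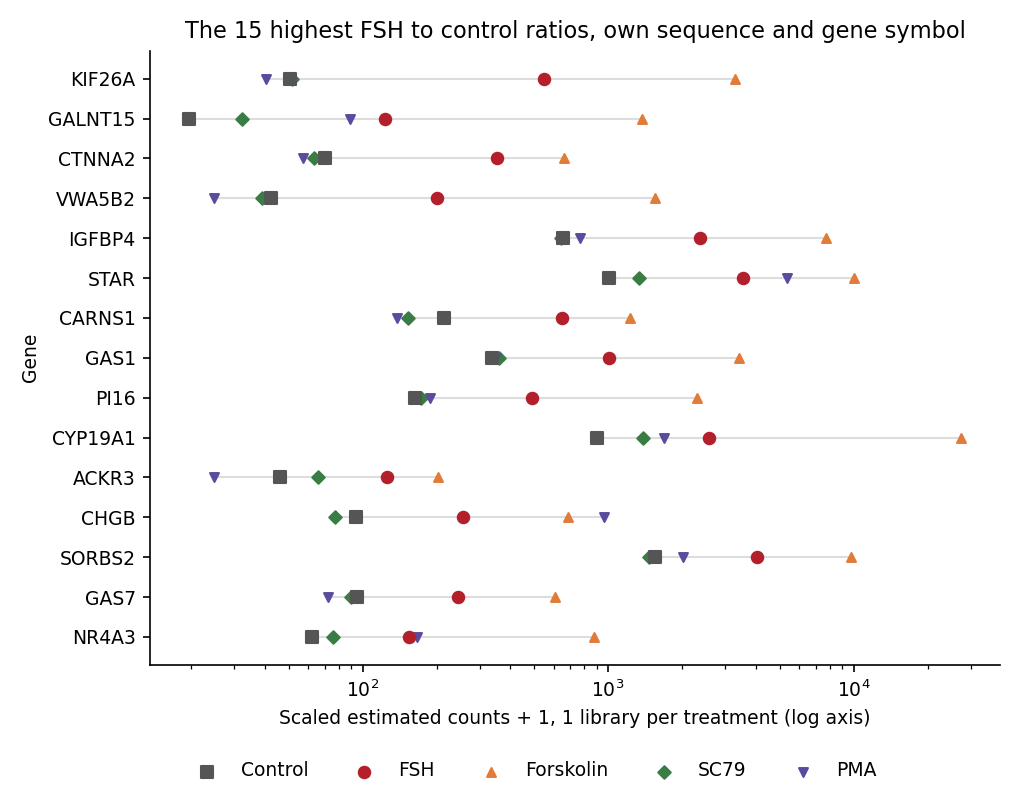
Scaled estimated counts plus 1 (log axis) of the 15 genes with own sequence and a gene symbol that had the highest FSH to control ratios, 1 point per library. In all 15 the red FSH point lies above the grey control point and below the orange forskolin point; STAR, CHGB and NR4A3 also have a PMA point above the FSH point.

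Genes of steroid hormone synthesis were next. STAR had 1011 scaled counts in control, 3531 with FSH, 10078 with FSK, 1333 with SC79 and 5377 with PMA. Its FSH to control ratio was 3.49 (3.26 to 3.74), and its level per length went from 22.4 to 77.1 TPM. CYP19A1 (ENSG00000137869, chr15:51208057-51338610) had 900 in control, 2564 with FSH, 27409 with FSK, 1382 with SC79 and 1688 with PMA, a ratio of 2.85 (2.65 to 3.07). FSH gave the next highest value after FSK for CYP19A1, while for STAR both FSK and PMA were higher. The 3 transcripts that hold at least 10% of CYP19A1 were each higher, with log2 ratios of 1.64, 1.39 and 1.69. CYP11A1, the side-chain cleavage enzyme that makes pregnenolone, had 825 and 1191 scaled counts and a ratio of 1.44 (1.32 to 1.58).

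These 3 genes had the highest ratios of their list above the minimum. Of 38 listed genes of steroid synthesis 25 reached 100 scaled counts, of which 15 were above and 10 below control, 2 at least 1.5-fold higher and 22 within 1.2-fold. The list's median log2 ratio was 0.03, beside -0.01 over all genes. SRD5A3, a reductase of the 5-alpha family, had the lowest ratio (log2 -0.22), followed by the sterol carrier STARD4 (-0.12). Per length STARD4 had 30.7 TPM in control and 30.8 with FSH. HSD3B2, which makes progesterone from pregnenolone, did not reach the minimum, with 12.8 scaled counts in control and 41.9 with FSH. Per length HSD3B2 differed less, with 0.804 and 1.17 TPM. Among 21 genes of cholesterol uptake, storage and transport 11 were above and 10 below control, and none passed 1.5-fold. GRAMD1B, which carries cholesterol from the plasma membrane, had the highest log2 ratio there (0.51) and LIPE, hormone-sensitive lipase, the lowest (-0.22). The interval of the LIPE ratio, 0.703 to 1.05, includes 1.

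The steps from the receptor to protein kinase A differed little. Of 25 genes of the receptor and its G protein steps 12 were above and 13 below control, with a median of -0.02. RGS2, which speeds the shut-off of G proteins, was the single one past 1.5-fold, with 535 scaled counts in control, 816 with FSH, 4824 with FSK, 514 with SC79 and 3899 with PMA. The adenylate cyclase ADCY3 (log2 -0.17) and the receptor kinase GRK4 (-0.18) had the lowest ratios. The interval of the GRK4 ratio, 0.744 to 1.04, includes 1. Of 24 genes of protein kinase A and of EPAC, the other cyclic AMP sensor, 12 were above and 12 below, and none passed 1.5-fold. The EPAC genes RAPGEF4 (log2 0.41) and RAPGEF3 (0.27) were at the top, the anchor AKAP5 (-0.14) and the regulatory subunit PRKAR2B (-0.19) at the bottom. The interval of the ratio includes 1 for RAPGEF3 (0.925 to 1.58) and AKAP5 (0.810 to 1.02). Per length RAPGEF3 had 1.40 TPM in control and 1.31 with FSH. Of 14 genes of CREB factors, their coactivators and salt-inducible kinases 7 were above and 7 below. SIK1 led with 0.40, but only 9.62% of its sequence is its own, so its reads may be split with a near-identical copy.

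Of 9 phosphodiesterases 2 passed 1.5-fold. PDE4B had 111 scaled counts in control, 255 with FSH, 907 with FSK, 111 with SC79 and 237 with PMA, a ratio of 2.29 (1.84 to 2.87). The transcript ENST00000371045.9 held 66.4% of PDE4B in control and 91.4% with FSH. PDE7B (chr6:135851696-136195574) had 372, 817, 6598, 426 and 1148 in the same order, a ratio of 2.20 (1.95 to 2.49). PDE4D, which also breaks down cyclic AMP, had a log2 ratio of 0.42, PDE8B -0.05 and PDE1C -0.23.

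Genes known to respond to cyclic AMP had the highest median of the lists with at least 5 genes above the minimum. Of 22 that reached the minimum 17 were above and 5 below control. A ratio of 1.5 was passed by 5 of them and a ratio of 2 by 3. The median log2 ratio was 0.22, beside -0.01 over all genes. Of the 12471 genes compared, 46.3% were above control, 0.73% passed a ratio of 1.5 and 0.305% a ratio of 2. The list was chosen with earlier results of these data known, so its larger shares are not a test. With FSK 19 of the 22 genes were above control (median 0.93), with PMA 19 (0.44) and with SC79 10 (-0.01). NR4A3 had 61.4 scaled counts in control, 154 with FSH, 876 with FSK, 75.1 with SC79 and 166 with PMA, a ratio of 2.50 (1.87 to 3.39). Its relatives were higher by less, NR4A2 with 311 and 512 (ratio 1.65, 1.43 to 1.90) and NR4A1 with 839 and 1012 (1.21, 1.10 to 1.32). STC1, the secreted stanniocalcin, had 277 in control, 562 with FSH, 6297 with FSK, 271 with SC79 and 20098 with PMA, its highest library. In the other direction stood CITED4, a coactivator (log2 -0.36), and CREM, which encodes activators and the short repressor ICER of this pathway (-0.14, interval of the ratio 0.817 to 1.00). Within CREM the transcript ENST00000460270.5 went from 151 scaled counts in control to 48.5. With the authors' constants, which leave the difference in library totals in, the median of this list was 0.07, beside -0.16 over all genes. By these constants 12 genes of the list were above and 10 below control.

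**Figure D3:**
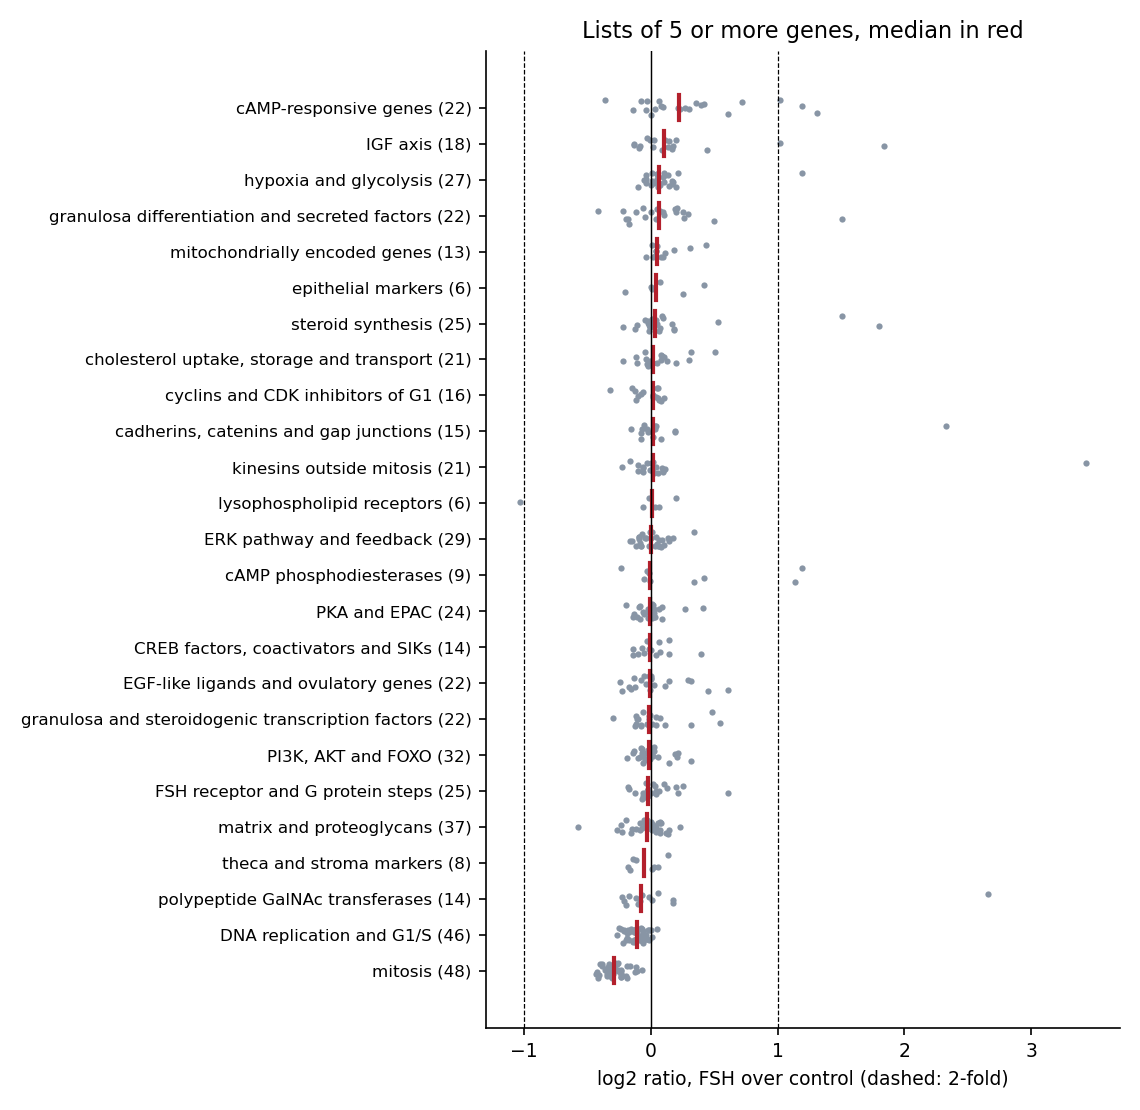
Log2 ratio of FSH over control for the genes that reached 100 scaled counts in each list with at least 5 such genes (grey points, number in brackets, jittered vertically) with the median of the list as a red bar; dashed lines mark 2-fold. Of these lists the cyclic AMP-responsive genes have the median farthest to the right (0.22) and mitosis the one farthest to the left (-0.29), while most lists centre near 0.

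In the insulin-like growth factor axis, IGFBP4 (chr17:40443461-40457731), a binding protein that holds IGFs away from their receptor, had the highest ratio. It had 657 scaled counts in control, 2357 with FSH, 7730 with FSK, 643 with SC79 and 765 with PMA, a ratio of 3.59 (3.30 to 3.91). The FSH level was over that of control, SC79 and PMA, which lay close together. Of 18 genes of this axis 12 were above and 6 below control, 2 (IGFBP4 and STC1) were past 1.5-fold, and the median was 0.10. IGFBP3 had a log2 ratio of 0.44. IGFBP5, the most abundant of the list by counts, had 210329 scaled counts in the control library and 236735 in the FSH library. The RNA-binding proteins IGF2BP2 and IGF2BP3 were lowest, at -0.13 each.

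Among 22 granulosa and steroidogenic transcription factors 8 were above and 14 below control, and none passed 1.5-fold. KLF9, a Krüppel-like factor, had 521 and 760 scaled counts (log2 0.54) and LHX9, a gonadal homeobox factor, 643 and 898 (0.48). NR5A2, a nuclear receptor of steroidogenic cells, had the lowest ratio, with 615 and 499 (-0.30, interval of the ratio 0.721 to 0.912). Of 22 genes of differentiation and secreted factors, which include CYP19A1, 13 were above and 9 below. AMHR2, the receptor of anti-Müllerian hormone, had 98.1 and 139 (ratio 1.41, 1.09 to 1.84). BMPR1B, a receptor for bone morphogenetic proteins, was at the bottom with 126 and 93.7 (log2 -0.42). INHA, the inhibin alpha subunit, stayed under the minimum with 61.4 and 93.8 (ratio 1.53, 1.10 to 2.12), and the activin subunit INHBA had 1341 and 1608.

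Genes of other signalling branches were near control. In the PI3K, AKT and FOXO list 13 of 32 genes were above and 19 below, none past 1.5-fold, with FOXO1, the factor that AKT keeps out of the nucleus, on top (659 and 821 scaled counts, log2 0.32). In the ERK list 15 of 29 were above and 14 below, with the feedback inhibitor SPRY1 on top (0.34) and the phosphatase DUSP7 at the bottom (-0.16). Of 22 genes of EGF-like ligands and ovulation 7 were above and 15 below. RGS2 and the cytokine IL11 (0.45) led them, and HAS2, which makes hyaluronan, (-0.23) and the plasminogen activator PLAT (-0.24) came last.

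Genes of cell division lay a little under control as a group. All 48 genes of the mitosis list were below control with FSH, none by 1.5-fold, and 18 were within 1.2-fold. Their median log2 ratio was -0.29, beside -0.01 over all genes, and for 46 the counting interval lay below 1. Over all 12471 genes 6695 (53.7%) were below control and 2346 (18.8%) had an interval below 1. PLK1, a kinase that drives mitotic entry and spindle assembly, had 4155 scaled counts in control, 3088 with FSH, 770 with FSK, 3674 with SC79 and 1433 with PMA. KIF14, a kinesin of cytokinesis, had the lowest ratio, with 2494 and 1845 (0.740, 0.697 to 0.785). PTTG1, the securin, was closest to control (log2 -0.07). With all 4 scalings that were tried the 48 genes stayed below control with FSH. The other treatments also lay below control, with all 48 genes for FSK (median -2.27), 48 for PMA (-1.24) and 47 for SC79 (-0.18). Fewer dividing cells and less of these RNAs per cell cannot be told apart in bulk RNA.

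Genes of DNA replication and of entry into S phase were nearer to control. Of 46 genes 43 were below and 3 above, 45 were within 1.2-fold, and the median was -0.11. TYMS, thymidylate synthase, had 4986 and 4181 scaled counts (log2 -0.25) and RFC2, of the clamp loader, 553 and 460 (-0.27), while the helicase factor CDC45 had 465 and 480 (0.05). The direction depended on which library stood for the control. Set against the SC79 library, the FSH library had 41 of these 46 genes above and a median of 0.13, while 42 of the 48 mitosis genes were still below it (median -0.12). SC79 itself had medians of -0.24 for replication and -0.18 for mitosis over control. For replication FSK had a median of -1.64 and PMA of -0.45 over control. Among 16 G1 cyclins and inhibitors 9 were above and 7 below, with the inhibitor CDKN2C lowest (1971 and 1572, log2 -0.33).

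Fewer genes were lower than higher. Apart from AL356432.3, given above, the lowest with own sequence was FAM60DP, a processed pseudogene, with 235 scaled counts in control, 103 with FSH, 259 with FSK, 294 with SC79 and 166 with PMA. LPAR4 (ENSG00000147145, chrX:78747709-78757094), a receptor for lysophosphatidic acid, had 118, 57.4, 238, 107 and 119 in that order, a ratio of 0.485 (0.346 to 0.662). FSH was the lowest of the 5 libraries for both. The potassium channel KCNJ2 (chr17:70168673-70180048) was also lowest with FSH, with 390 in control, 227 with FSH, 690 with FSK, 695 with SC79 and 492 with PMA (ratio 0.583, 0.495 to 0.688). Its relative KCNJ3 had 143 and 84.1.

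For ACSS1, the mitochondrial acetyl-CoA synthetase, FSH was not the lowest library. It had 200 scaled counts in control, 99.8 with FSH, 43.1 with FSK, 137 with SC79 and 49.4 with PMA. ADM2, a peptide hormone of the calcitonin family, had 145 in control, 72.2 with FSH and 34.6 with FSK, and the forkhead gene FOXS1 had 128, 70.9 and 14.6. MLLT3 (chr9:20341665-20622543), a subunit of the super elongation complex, was the most abundant of the 10 lowest that have a gene symbol, with 4078 in control, 2549 with FSH, 6077 with FSK, 4928 with SC79 and 2772 with PMA (ratio 0.625, 0.595 to 0.657). Its main transcript ENST00000380338.8 had 4022 and 2189 scaled counts, while the shorter ENST00000630269.2 had 46.3 and 339. Per length MLLT3 therefore differed less, with 27.7 and 22.4 TPM.

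**Figure D4:**
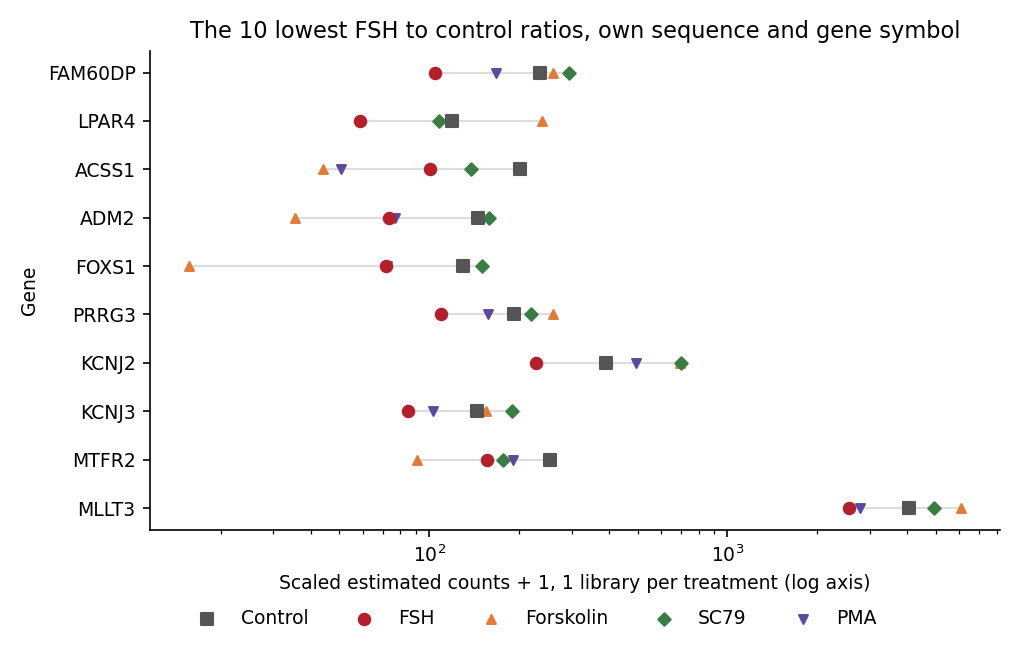
Scaled estimated counts plus 1 (log axis) of the 10 genes with own sequence and a gene symbol that had the lowest FSH to control ratios, 1 point per library; AL356432.3, a clone name with a lower ratio, is not shown. The red FSH point is left of the grey control point in all 10 and is the lowest of the 5 libraries for FAM60DP, LPAR4, PRRG3, KCNJ2, KCNJ3 and MLLT3; forskolin is lowest for ACSS1, ADM2, FOXS1 and MTFR2.

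Few genes had FSH as an extreme among the 5 libraries. Of 12382 genes that reached 100 scaled counts in the FSH library, 5 (0.0404%) were at least 1.5-fold higher there than in each other library. The same count was 3 for control, 24 for SC79, 499 for PMA and 543 for FSK. With own sequence it was 1 for FSH, 2 for control, 12 for SC79, 437 for PMA and 504 for FSK. AC012254.2, AC116533.1, C4B_2 and AL136295.1 have under 5% own sequence or none known, which left LBH (chr2:30231369-30323730), a transcription cofactor named for limb bud and heart. LBH had 3370 scaled counts in control, 5570 with FSH, 3455 with FSK, 2769 with SC79 and 3109 with PMA. The FSH to control ratio of LBH was 1.65 (1.59 to 1.72), and FSH was 1.61-fold over FSK, the next library. Of 11927 genes that reached 100 in each of the 4 other libraries, 8 (0.0671%) were at least 1.5-fold lower with FSH than in each other library, 4 of them with own sequence: LPAR4, KCNJ2, FAM60DP and AL356432.3. The last is a pseudogene with 80.1% own words, 9621 scaled counts in control, 151 with FSH and between 4336 and 8694 in the other libraries. The same count of lowest genes was 7 for control, 4 for SC79, 418 for PMA and 643 for FSK. With own sequence these were 1, 3, 388 and 578.

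Markers of other cell types gave the following. Of 11 immune markers 1 (CD68) reached the minimum, CD3D, CD3E, MS4A1 and NKG7 were at 0 in both libraries, and the summed level was 921 in control and 958 with FSH. Of 8 endothelial markers 2 reached it (KDR, log2 0.55, and PECAM1, 0.20), with sums of 407 and 470 and CDH5 at 0 in control. None of 10 oocyte markers reached it (sums 33.6 and 42.4). Of 10 epithelial markers 6 reached it, with sums of 59443 and 62692 and KRT7 highest (0.42). Of 12 theca and stroma markers 8 reached it, 4 above and 4 below control, with sums of 971944 and 907731. Their part in the differences above was not tested.

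In the remaining lists at most 1 gene passed 1.5-fold. Of 27 hypoxia and glycolysis genes 22 were above and 5 below control with FSH, with a median of 0.07. Over all 12471 genes 5776 (46.3%) were above and 6695 (53.7%) below. Of these 27, 18 were above and 9 below control with FSK, 3 and 24 with SC79, and 19 and 8 with PMA. Carbonic anhydrase CA9 was the single one of the list past 1.5-fold with FSH (189 and 433 scaled counts, 67.3% own sequence). Of 37 matrix genes 17 were above and 20 below, from TIMP1, a protease inhibitor (log2 0.23), to the proteoglycan BGN (-0.57, with 101 and 67.6 scaled counts). Of the 13 mitochondrially encoded genes 12 were above and 1 below, with a median of 0.05. GALNT15 was the single gene past 1.5-fold of 14 GalNAc transferases, and KIF26A of 21 kinesins outside mitosis. CTNNA2 was the single one of 15 cadherin, catenin and gap junction genes. The lists were chosen with earlier results of these data known, so that these families hold a high gene is not a result. Over all 12471 genes 91 (0.73%) were at least 1.5-fold higher.

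The deposited table of the authors compares transcripts. Of 179973 transcripts 3239 (1.8%) had an adjusted p-value under 0.05 for FSH against control in the authors' deposited table, 1707 higher and 1532 lower, in 2444 genes. The same table has 3955 such transcripts for FSK, 3317 for SC79 and 3900 for PMA. Of the 3239, 3106 (95.9%) had under 1 scaled count in the lower library, and the smallest absolute log2 fold change among them in the authors' deposited table was 3.97. Of the 3042 that belong to genes compared here, 2887 (94.9%) belong to a gene whose summed counts lay within 1.2-fold of control, and 19 to a gene past 2-fold in the same direction. In 333 genes one such transcript was higher and another lower. ARID1B, a chromatin remodeller subunit, is an example, with ENST00000350026.10 at 815 and 46.9 scaled counts, ENST00000637810.1 at 0.278 and 622, and a log2 ratio of the whole gene of -0.02. For the main transcripts of STAR, IGFBP4 and GALNT15 the authors' deposited table gives adjusted p-values of 0.908, 0.900 and 0.389, and for the longer transcript of KIF26A 0.164. Adjusted p-values under 0.05 in the authors' deposited table belong to ENST00000437099.6 of GAS7 (0.00167), which went from 0.992 to 169 scaled counts, to ENST00000445895.2 of CARNS1 (0.000396) and to the single transcript of the pseudogene AC116533.1 (0.00011). The transcript with the most counts differed between control and FSH in 568 of 11240 genes (5.05%), and in 5.31% to 6.51% for the other pairs of libraries.

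**Figure D5:**
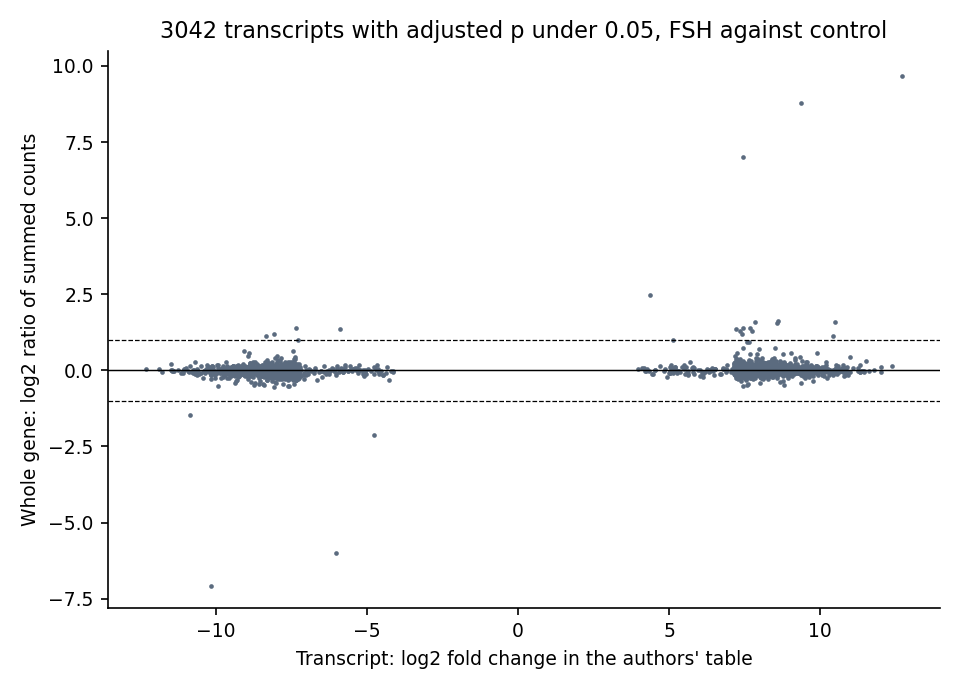
Log2 fold change of each of 3042 transcripts with an adjusted p-value under 0.05 in the authors' deposited table (x axis) against the log2 ratio of summed counts of its gene (y axis), with 1 point per transcript and dashed lines at 2-fold. No point lies near 0 on the x axis, while most points lie along 0 on the y axis.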

How the data were processed

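RNA of 5 KGN libraries was used, 1 for each treatment. The genes and lists were chosen with earlier results of these data known. The authors deposited estimated counts per transcript, and a normalized signal that the deposited columns show to be those counts times 1 constant per library (1.02 for control, 0.998 for FSH). The authors' deposited comparison table gives log2 fold changes, p-values and adjusted p-values per transcript, from 1 library per group. Trimmomatic, kallisto and edgeR are named in the submitters' processing notes, without versions. For build, transcript index and strand handling nothing was given in the sources used here.

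Estimated counts were summed by gene name, rounded, and scaled by TMM with edgeR 4.0.16 in R 4.3.3, with size factors divided by their geometric mean. The design had assumed counts per gene. Log2 ratios had a pseudocount of 1. Intervals came from the rounded counts with scipy 1.17.1 in Python 3.11.15, and cover counting error only, since PCR copies cannot be told from separate molecules. Coordinates and own words of 31 bases came from GENCODE 29, which held 91.0% of the transcripts with a gene name. The steps recovered known folds on counts simulated with counting error only. That simulation held no spread between cultures and no reads shared between genes, so it does not cover these. All sample columns were matched.

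Genes were named by rule: the 15 highest and 10 lowest ratios with own sequence and a symbol that is not a clone name, the 2 highest and 2 lowest of each of 28 lists, a fixed set of pathway genes, transcripts with at least 100 scaled counts and 10% of their gene, and the genes highest with FSH. Alternatives were other scalings, minima, pseudocounts and transcript sets, and the SC79 library in place of control.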

Additional observations from a re-analysis of the deposited data

How the results depend on the processing

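No paired analysis was possible because each treatment has 1 library, and for the same reason no library could be left out. The 38 genes at least 2-fold higher and 13 lower, and the 91 and 37 at 1.5-fold, depended most on the minimum. They came to 136, 76, 352 and 257 at a minimum of 20 scaled counts, to 12, 4, 32 and 7 at 500, and to 1222, 1104, 2851 and 2779 with none, where fewer or more genes were tested. With own sequence required they were 25, 3, 63 and 16. The authors' constants leave the difference in library totals in and shift the median log2 ratio of all genes from -0.01 to -0.16. With them 29 genes were higher and 19 lower by 2-fold, and 60 and 107 by 1.5-fold. With SC79 in place of control 41 were higher and 24 lower by 2-fold, of which 25 and 7 were among the 38 and 13, and 121 were higher and 88 lower by 1.5-fold; the ratios of 74 of 128 named genes moved beyond their counting intervals. With protein_coding transcripts alone 35 and 15 passed 2-fold, of which 29 and 6 were shared. The 5 genes highest with FSH were 2 at a minimum of 500, 2 at 2-fold and 1 with own sequence. For 25 lists the median was set against the median lower and median upper ends of its members' counting intervals. It stayed between these ends with DESeq2 size factors, library totals, a pseudocount of 5 and protein_coding transcripts. Medians near 0 could still change sign. With the SC79 library 11 medians fell outside these ends. In a setting chosen after seeing the data, the authors' constants for the lists, the cAMP-responsive genes were the one list of at least 5 members with a median above 0.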

Other observations

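Further genes with own sequence passed 1.5-fold outside the rule for named genes, and those given here were chosen after their values were seen. SFRP1, a Wnt antagonist, had 1090 scaled counts in control, 2153 with FSH and 10337 with FSK. TM4SF1, a tetraspanin-like membrane protein, had 2250 in control, 4820 with FSH and 23990 with FSK. SCG2, secretogranin II, had 1818 and 2732 in control and with FSH, and VTN, vitronectin, had 1032 and 1632. PDGFD, a platelet-derived growth factor, had 1633 and 2528. RASD1, a small G protein, had 216 in control, 415 with FSH and 9017 with FSK. The FSK library was the highest of the 5 for each of these genes, with 11914 for SCG2, 7291 for VTN and 9274 for PDGFD. The PMA library was above FSH for SFRP1 (2425), TM4SF1 (6355), PDGFD (2569) and RASD1 (2371). It was below FSH for SCG2 (997) and VTN (645).

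HLA-DQB1, HLA-DPB1 and HLA-DMB are genes of the major histocompatibility complex class II. They had 106, 151 and 166 scaled counts in control, 188, 237 and 254 with FSH, and 385, 1038 and 1502 with FSK. Receptors were among the higher genes too. The serotonin receptor HTR2A had 95.4 and 208, and NTRK2, the receptor of the neurotrophin BDNF, had 321 and 551. With FSK HTR2A had 222 and NTRK2 had 1232. On the lower side FGF23, a hormone of phosphate balance, had 3615 scaled counts in control, 2262 with FSH and between 2734 and 3631 in the other libraries, so FSH was the lowest of the 5.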
